A study of Mus musculus with 2 samples.

Results

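The Pax genes encode transcription factors that share a DNA-binding paired domain, and the mouse has 9 of them, Pax1 to Pax9. All 9 were present among the 55416 genes of the count table and were taken as a gene family by symbol. RNA was sequenced from whole pieces of 2 rhabdoid tumors of Dppa3-cre::Smarcb1 Fl/+ mice on a C57BL/6 background. In these mice Cre is inserted at Dppa3, a gene active in primordial germ cells, and 1 of the Smarcb1 alleles is floxed. Both tumors shared this genotype and were labelled MYC; the age of the mice is not given in the sources used here. The tumor labelled intracranial lay at the trigeminal nerve, and the tumor labelled extracranial lay in the maxillary region of the face. Each location had 1 library and no normal tissue was analysed, so no difference below has a replicate check, and intervals cover counting error only. The family was selected on its read counts in these libraries, with the large ratio of Pax1 between them already known, so the values below are a description and no test is attached to them.

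Pax factors set the identity of tissues in the embryo. Pax1 and Pax9 are close relatives that act in the sclerotome, the part of the somite that forms the vertebral column, and in the pharyngeal pouches, and Pax9 also acts in tooth, palate and the stratified lining of mouth and esophagus. Pax3 and Pax7 mark neural crest and muscle progenitors. Pax2, Pax5 and Pax8 act at the midbrain-hindbrain boundary, with further roles of Pax2 and Pax8 in the kidney, of Pax8 in the thyroid and of Pax5 in B cells. Pax4 and Pax6 act in the endocrine pancreas, and Pax6 in eye and forebrain.

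The libraries held 34545846 (intracranial) and 26915696 (extracranial) counts, so that 3 counts, taken as the floor, equal 0.0863 and 0.112 CPM, a count scaled to library size. Smarcb1, the targeted gene, had 365 and 530 counts, or 10.5 CPM (95% Clopper-Pearson interval 9.45 to 11.6) and 19.8 CPM (18.2 to 21.6). Deleted and intact alleles cannot be told apart in these counts. By staining, the paper reports loss of Smarcb1 protein in tumors of this model near the trigeminal nerve and in the maxillary region. Of 19 genes of SWI/SNF subunits, 0 were called by the rule given below, against 7.19% of all genes (median log2 ratio 0.18). Some markers went against the location labels. The 5 single-cell markers that the study named for extracranial tumor cells summed to 2542 CPM in the intracranial-labelled library against 922.4 CPM, and 14 markers of oral and esophageal epithelium summed to 21652 CPM there against 1.98 CPM. For this reason each library is called only by its label.

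Pax9 and Pax1 carried nearly all Pax reads, and their regions before the RefSeq start are shown here for that reason. Both stretches are 250 bases on the plus strand of build GRCm38.p6, at chr2:147364744-147364993 for Pax1 and chr12:56695221-56695470 for Pax9. In the GENCODE annotation they lie inside the gene, in an intron of a longer transcript, and overlap no exon of it. Capitals mark CCAAT or its reverse complement ATTGG, a sequence common in promoters.
Pax1: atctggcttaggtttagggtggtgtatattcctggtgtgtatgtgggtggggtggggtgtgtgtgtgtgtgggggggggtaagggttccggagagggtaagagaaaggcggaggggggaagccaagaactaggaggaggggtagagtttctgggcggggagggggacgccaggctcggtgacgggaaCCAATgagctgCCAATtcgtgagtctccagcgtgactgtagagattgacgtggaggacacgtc
Pax9: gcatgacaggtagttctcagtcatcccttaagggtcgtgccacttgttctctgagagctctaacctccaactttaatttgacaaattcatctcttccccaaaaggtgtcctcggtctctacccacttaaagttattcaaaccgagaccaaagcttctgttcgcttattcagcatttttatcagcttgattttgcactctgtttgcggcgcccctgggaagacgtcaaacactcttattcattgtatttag
The Pax1 stretch held CCAAT at 2 places and the Pax9 stretch at 0, against 33.8% of the 32851 RefSeq promoter windows cut to the same length that held it on either strand. TATAAA was found in neither, against 12.4% of windows. The GC box letters GGGCGG occurred at 1 place in the Pax1 stretch and at 0 in the Pax9 stretch, against 32.7% of windows. The Pax1 stretch had 10 CpG dinucleotides and the Pax9 stretch 7, with a median of 6 over all windows.

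Pax1 was the member with the widest gap between the tumors. Pax1 (ENSMUSG00000037034, chromosome 2) had 15 counts in the intracranial-labelled library and 1453 in the extracranial-labelled library, or 0.432 CPM (0.242 to 0.712) and 54.3 CPM (51.5 to 57.2). Pax1 was thus near the floor in the former tumor and well expressed in the latter. The extracranial over intracranial ratio was 126-fold (76.0 to 225.3), a log2 ratio of 6.97 (6.25 to 7.82). Per kilobase of exon among protein-coding genes above the floor, its level stood at percentile 7.23 in the intracranial-labelled library and 77.9 in the other.

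Pax9 was expressed in both tumors. Pax9 (ENSMUSG00000001497, chromosome 12) had 574 counts in the intracranial-labelled library and 1362 in the extracranial-labelled library, or 16.5 CPM (15.2 to 17.9) and 50.9 CPM (48.2 to 53.7). Its ratio was 3.08-fold (2.79 to 3.40), a log2 ratio of 1.62 (1.48 to 1.77), in the direction of Pax1 but smaller. Per kilobase its level stood at percentile 48.5 and 74.0 of protein-coding genes above the floor.

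The order of these paralogs differed between the tumors. In the intracranial-labelled library, Pax9 stood at 3.27 CPM per kilobase (3.01 to 3.55) and Pax1 at 0.0961 (0.0538 to 0.159), so that the level of Pax9 was 34.0 times that of Pax1 (20.4 to 61.1). In the extracranial-labelled library, Pax1 stood at 12.1 CPM per kilobase (11.5 to 12.7) and Pax9 at 10.1 (9.54 to 10.6), a level of Pax1 1.20 times that of Pax9 (1.11 to 1.29). Without the correction for length this last ratio was 1.07 (0.990 to 1.15), so that the order of Pax1 and Pax9 in this tumor rests on the exon lengths used. The transcripts of the 9 genes shared no stretch of 72 bases, the length of the reads, in any of 36 pairs.

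**Figure D1:**
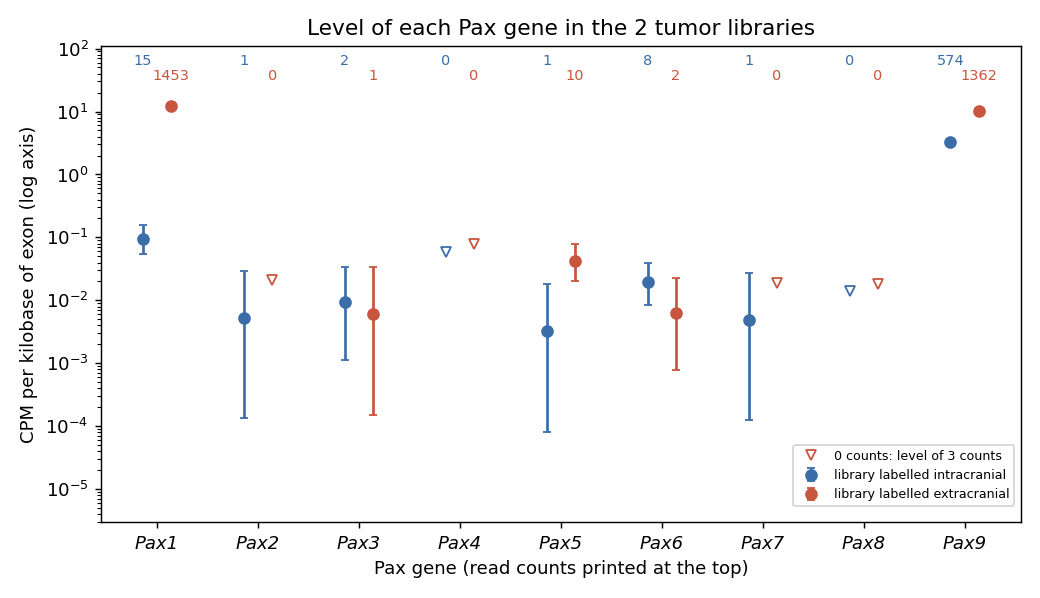
Level of the 9 Pax genes as CPM per kilobase of exon (log axis) in the intracranial-labelled library (blue) and the extracranial-labelled library (red), with points at the measured level, bars for the 95% Clopper-Pearson counting interval, open triangles at the level of 3 counts where a gene had 0 counts, and read counts at the top. Pax9 has the highest level of the 9 genes in the intracranial-labelled library, Pax1 and Pax9 have the highest in the extracranial-labelled library (Pax1 with 1453 against 15 counts), and the other 7 genes have at most 10 counts.

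The other 7 Pax genes had at most 10 counts in either library. Pax6, the eye and forebrain factor, had 8 counts in the intracranial-labelled library and 2 in the other, a ratio of 3.08-fold toward the former with an interval (0.615 to 29.8) that spans 1. Pax5, the B cell factor, had 1 and 10 counts, a ratio of 13.0-fold toward the extracranial-labelled library (1.85 to 563.5). Both genes have few reads, and the lower count of either is under the floor. With that count set to 3, the log2 ratio was 2.11 for Pax5 and -1.04 for Pax6.

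Pax3, which marks neural crest and muscle progenitors, had 2 and 1 counts. Pax7, of the same subgroup, had 1 and 0 counts, and Pax2, the early kidney factor, also had 1 and 0. Pax4 and Pax8 had 0 counts in both libraries, under the floor of 3 counts (0.0863 CPM in the intracranial-labelled library and 0.112 CPM in the other). At or under the floor in both tumors, these 5 genes were given no ratio. Their expression was not detectable at this depth. In levels per kilobase the intervals of Pax1 and Pax6 did not overlap in the intracranial-labelled library (Pax6 at 0.0197, 0.0085 to 0.0388), whereas below Pax6 no neighbors in the order were separated. In the extracranial-labelled library, Pax9 was separated from Pax5 (0.0422, 0.0202 to 0.0776), and below Pax5 none were.

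Taken as a share of all Pax counts, Pax9 held 95.3% (93.3 to 96.9) and Pax1 2.49% (1.40 to 4.08) of 602 counts in the intracranial-labelled library. In the extracranial-labelled library, Pax1 held 51.4% (49.5 to 53.2) and Pax9 48.2% (46.3 to 50.02) of 2828 counts. The other 7 genes together had 13 counts in each library, or 2.16% (1.15 to 3.66) and 0.460% (0.245 to 0.785). Summed over the family, the level was 17.3 CPM and 105.7 CPM.

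**Figure D2:**
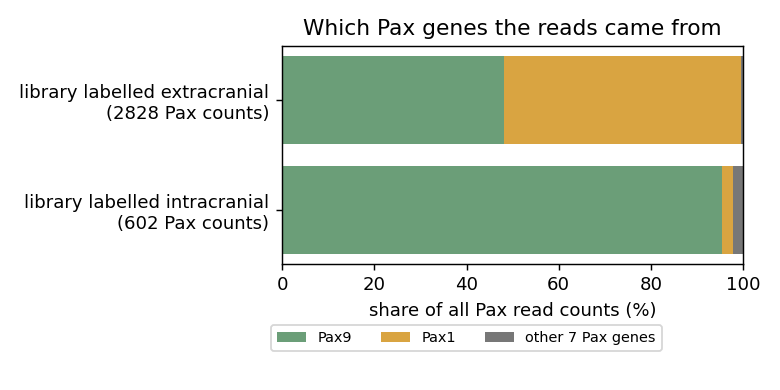
Share of all Pax read counts (%) taken by Pax9 (green), Pax1 (yellow) and the other 7 Pax genes (gray) in each library, as stacked bars from 0 to 100. Pax9 takes 95.3% in the intracranial-labelled library, whereas Pax1 and Pax9 take 51.4% and 48.2% in the extracranial-labelled library.

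Set among all genes, 4 of the 9 members (Pax1, Pax5, Pax6 and Pax9) had the 10 or more counts over both libraries that a ratio required. A gene was called where its whole 95% interval lay beyond 4-fold. This held for 1 of the 4, Pax1, higher in the extracranial-labelled library. Of the 21977 genes with enough counts, 7.19% were called, with 1.78% higher on the extracranial side and 5.41% on the intracranial side. Since Pax1 was selected on this contrast, nothing is read from its call. Ordered by the interval bound nearest to an equal ratio, Pax1 was number 4 of the 391 genes called higher in the extracranial-labelled library. Pax9 was not called, but its whole interval lay beyond 2-fold, as it did for 15.6% of genes (5.86% higher on the extracranial side and 9.77% on the intracranial side). The median log2 ratio over all genes tested was -0.04, and list medians below are given over the genes above 3 counts in a library. Counts of list genes called below stand beside these shares of all genes, and nothing is read from a count near its share.

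**Figure D3:**
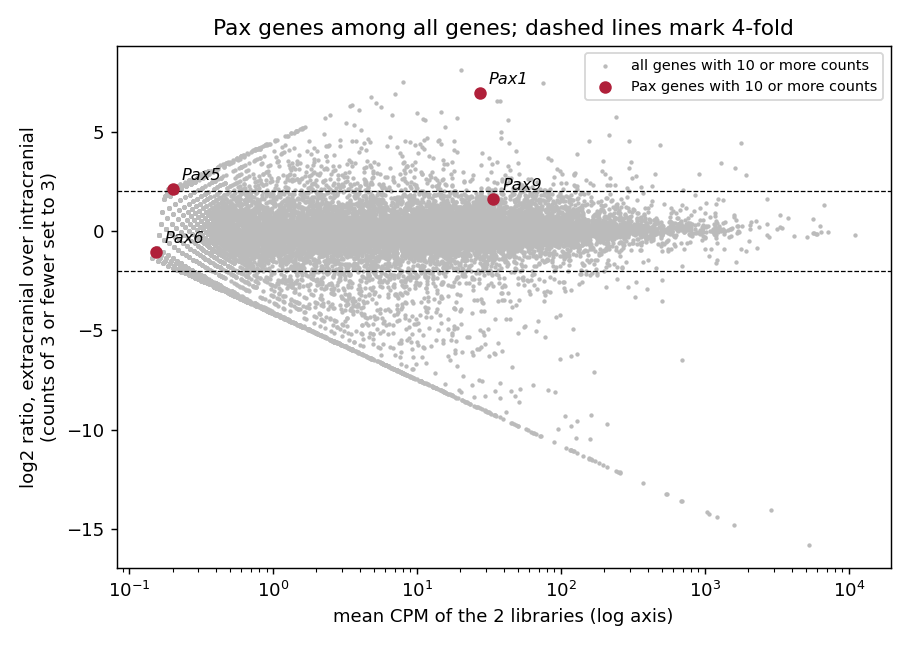
Log2 ratio extracranial over intracranial, with counts of 3 or fewer set to 3, against the mean CPM of the libraries (log axis) for all genes with 10 or more counts (gray) and the 4 Pax genes among them (red), with dashed lines at 4-fold. Pax1 lies at 6.97, Pax9 at 1.62 just inside the upper line, and Pax5 and Pax6 lie at the low end of expression.

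By levels in the 2 libraries, the protein-coding genes most like Pax1 were Aldh1a2, an enzyme of retinoic acid synthesis (16 and 1420 counts), Adamtsl1 (26 and 1906) and Vxn (5 and 1081). Those most like Pax9 were Bin2 (580 and 1326 counts), Gngt2 (562 and 1415) and Atp8a1 (582 and 1468). Likeness was the Euclidean distance of log2(CPM + 1), which was 0.04, 0.48 and 0.53 for the former and 0.04, 0.06 and 0.11 for the latter. With 2 libraries it describes a pair of levels and no more.

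The genes next to Pax1 and Pax9 on their chromosomes were also examined, and 0 of the few with enough counts were called, against 7.19% of all genes, from which nothing is read. These neighbors were chosen after the values were seen, as the 3 protein-coding genes on either side. Around Pax1, Xrn2 had 2656 and 1768 counts and Thbd 1121 and 710, with log2 ratios of -0.21 (-0.30 to -0.12) and -0.28 (-0.42 to -0.15). Foxa2, next to Pax1, had 7 and 17 counts and a wide interval around its log2 ratio of 1.66 (0.31 to 3.17), Sstr4 2 and 4, and Nkx2-2 and Nkx2-4 0 in both. Of these 6 genes, 3 had enough counts for a ratio.

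Around Pax9, Nkx2-1 had 0 counts in both libraries and Nkx2-9 had 0 and 1. Mbip (425 and 361 counts), Prps1l3 (554 and 473) and Mipol1 (167 and 132) had log2 ratios of 0.14 (-0.07 to 0.35), 0.15 (-0.03 to 0.33) and 0.04 (-0.30 to 0.38). Slc25a21, a mitochondrial carrier gene with exons that overlap those of Pax9 on the opposite strand, had 24 and 41 counts and a log2 ratio of 1.15 (0.39 to 1.94). Of these 6 genes, 4 had enough counts.

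An antisense gene with exons that overlap Pax1, AI646519, had 1 and 46 counts, and Gm15524, antisense to Pax9 without shared exons, had 4 and 18. Pax6os1, antisense to Pax6, had 0 in both. Whether strand was used in counting was not stated, so reads of Pax1 and AI646519, or of Pax9 and Slc25a21, cannot be told apart where they overlap.

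**Figure D4:**
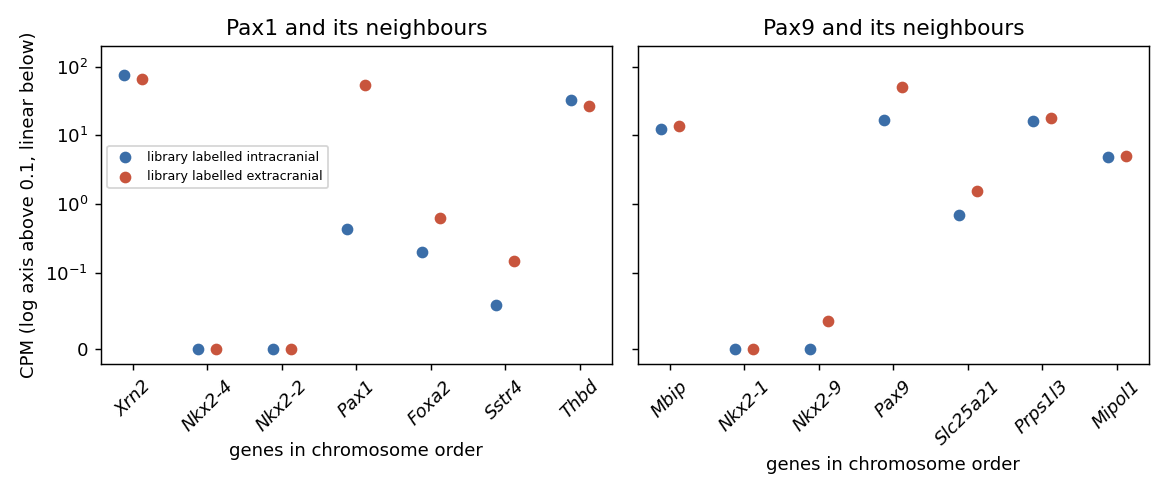
CPM (log axis above 0.1, linear below) of Pax1 (left) and Pax9 (right) with the 3 protein-coding genes on either side in chromosome order, in the intracranial-labelled library (blue) and the extracranial-labelled library (red). Pax1 is the gene with the wide gap, whereas Xrn2, Thbd, Mbip, Prps1l3 and Mipol1 have nearly equal levels in both libraries.

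Pax proteins work in a network with homeodomain proteins such as Six2 and Six3 and with the Eya and Dach factors, in which Eya proteins act as coactivators. Of the 12 genes of this network, 10 had enough counts. Of these, 4 were called higher in the intracranial-labelled library and 0 in the reverse direction, against 5.41% and 1.78% of all genes. Eya2 had 335 and 7 counts, Six2 138 and 10, Eya1 65 and 0, and Six3 24 and 0. These 4 genes were lower in the tumor with high Pax1, and a link between their levels and that of Pax1 was not tested. Eya3 was the most abundant of the list, at 27.7 and 30.4 CPM, and had a log2 ratio of 0.14 (0.00 to 0.27). Dach1 (42 and 173 counts) and Eya4 (59 and 188) had log2 ratios of 2.42 (1.93 to 2.94) and 2.05 (1.62 to 2.50) toward the extracranial-labelled library and were not called. The median log2 ratio of the network was -0.21.

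Cofactors of Pax proteins were expressed in both tumors. The 10 genes included the Groucho-type corepressors Tle1 to Tle4 and Paxip1, which links Pax factors to histone methyltransferases. Of the 10, 9 had enough counts and 0 were called, against 7.19% of all genes, from which nothing is read. Tle4 (58.5 and 28.2 CPM) and Tle1 (16.1 and 24.8 CPM) lay farthest from an equal ratio in either direction, with log2 ratios of -1.05 (-1.17 to -0.93) and 0.63 (0.46 to 0.79). Pagr1a had 0 counts in both, and the median log2 ratio was -0.12.

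Genes of the sclerotome and somite, where Pax1 acts, were compared next. Of 15 genes, 11 had enough counts, 0 were called higher in the extracranial-labelled library, against 1.78% of all genes, and 2 in the other, with a median log2 ratio of -0.80. Nkx3-2, a target of Pax1 and Pax9 in the sclerotome, had 1 and 0 counts. Meox2, a somite homeobox gene called higher in the intracranial-labelled library, had 2346 and 348. Meox1, which acts in sclerotome formation, was the most abundant gene of the list at 223 and 369.2 CPM, with a log2 ratio of 0.73 (0.68 to 0.77), and Foxc2 had one of 1.02 (0.87 to 1.17). Of the cartilage and tendon genes, which mark these tissues and not an origin from sclerotome, 8 of 12 had enough counts. Comp (6474 and 270 counts), the tendon factor Mkx (2420 and 215) and Sox6 (103 and 8) were called higher in the intracranial-labelled library, and Sox5 (29 and 248) higher in the other. Col2a1, the main collagen of cartilage, had 23 and 21 counts, and the median of this list was -0.10.

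The pharyngeal pouch and thymus list, for the other site where Pax1 acts, was low. Of 12 genes, 6 had enough counts and 1 was called, Foxn1 (81 and 0 counts), a factor of thymic epithelium and hair follicles, which was higher in the intracranial-labelled library. Psmb11, a proteasome subunit made by thymic cortical epithelium, had 1 count in each library. The list summed to 14.6 and 9.27 CPM, with a median log2 ratio of -0.85. The thymic epithelium markers Foxn1 and Psmb11 were thus at or near 0 in the library in which Pax1 was high. The part of such epithelium in the counts of Pax1 was not tested.

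For Pax9, genes of tooth and palate mesenchyme were expressed in both tumors. Of 12 genes, 11 had enough counts, 2 were called higher in the intracranial-labelled library (Fgf10, with 3132 and 183 counts, and Sostdc1, with 107 and 8) and 0 in the other. The median log2 ratio was 0.04. Lhx8 had 70.6 and 84.8 CPM and Inhba, an activin subunit, 104.5 and 48.8 CPM. Bmp4 and Shox2 had log2 ratios of 1.10 (0.95 to 1.24) and 1.13 (0.90 to 1.35).

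Stratified epithelium, the other site of Pax9, differed sharply. All 14 genes of oral and esophageal epithelium were called higher in the intracranial-labelled library, with a median log2 ratio of -8.51, and they summed to 21652 and 1.98 CPM. Krt13 had 366709 and 5 counts, Krt4 199691 and 9, and Trp63, a factor of basal epithelial cells, 1284 and 0. The defining markers of this epithelium were thus at or near 0 in the library in which Pax9 was higher, at 50.9 CPM. The part of epithelium in the counts of Pax9 (574 in the intracranial-labelled library) was not tested in either library.

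In bulk tumor pieces, fewer cells of a type and less RNA per cell cannot be told apart. Macrophage markers, 12 of 12, had intervals that lay above an equal ratio in the direction of the extracranial-labelled library, with a median log2 ratio of 1.60. They summed to 3212 and 9564 CPM, and 1 of 12 was called (Aif1, with 1740 and 7196 counts). Pax9 had a log2 ratio of 1.62, and the part of macrophage content in it was not tested.

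Lineage genes of Pax3 and Pax7 were compared next. In the muscle list, the myogenic factors Myf5 and Myod1 and the migrating progenitor factor Lbx1 had 0 counts in both libraries. Of 13 genes 7 had enough counts, and 1 was called, Myh8 (33 and 1 counts), higher in the intracranial-labelled library, with a list median of -1.67. In the neural crest and melanocyte list, 11 of 12 genes had enough counts, and Tfap2b (219 and 3 counts), Sox10 (43 and 0) and Erbb3 (415 and 51) were called higher in the intracranial-labelled library. Ets1 (27.5 and 43.2 CPM) and Mitf (8.72 and 17.3 CPM) had log2 ratios of 0.65 (0.53 to 0.78) and 0.99 (0.78 to 1.21), and the list median was -0.95.

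The nerve lists differed gene by gene. Of the 12 Schwann cell genes, 3 were called higher in the intracranial-labelled library (among them Pou3f1, with 75 and 2 counts, and Cdh19, with 66 and 4) and 1 in the other (Egr2, with 630 and 2396 counts), with a median of -0.92. Of the sensory neuron genes, 6 of 11 had enough counts, and Calca (2484 and 39 counts) was called higher in the intracranial-labelled library. Pou4f1, a defining factor of these neurons, had 9 and 1 counts, and the list median was -0.13.

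Genes in the lists for the remaining members were mostly low. Of the 12 endocrine pancreas genes, 8 were at 0 counts in both libraries, among them Ins1, Ins2 and Neurog3. Only 2 had enough counts and 0 were called, against 7.19% of all genes, from which nothing is read. The list still summed to 99.8 CPM in the intracranial-labelled library and 123.1 CPM in the other. For the midbrain-hindbrain organizer, 5 of 10 genes had enough counts, of which Otx2 (196 and 0 counts) and Lmx1b (67 and 2) were called higher in the intracranial-labelled library and En1 (3 and 55 counts) higher in the other. Fgf8 was at 0 in both, and the median was -1.03.

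The kidney list had 6 of 12 genes with enough counts. Osr1, also expressed in limb and craniofacial mesenchyme, had 209 and 1143 counts and was called higher in the extracranial-labelled library, whereas Cited1 (454 and 13) and Six2 were called higher in the other. Wt1, Lhx1 and Cdh16 were at 0 in both, and the median was -1.06. In the thyroid list, Nkx2-1 was at 0 in both, and Foxe1 (194 and 1 counts), Slc5a5 (245 and 14) and Slc26a4 (39 and 0) were the 3 genes called, all higher in the intracranial-labelled library, with 7 of 10 genes counted enough and a median of -2.21. In the eye and forebrain list, Rax (5 and 91 counts) was called higher in the extracranial-labelled library and Six3 higher in the other, of 5 genes with enough counts, with a median of 0.17.

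The median of the B cell list lay on the side of Pax5. Of 12 genes, 10 had enough counts, with a median log2 ratio of 1.61. Of these, 3 were called higher in the extracranial-labelled library and 0 in the other, against 1.78% and 5.41% of all genes. The 3 genes were Bank1 (31 and 577 counts), Cd79b (57 and 607) and Cd22 (66 and 393). The defining marker Cd79a was low, at 19 and 15 counts, and Ebf1, also expressed in mesenchyme, had 3675 and 942. In the plasma cell list, 7 of 8 genes had enough counts and 0 were called, against 7.19% of all genes, with a median of 0.70. With 11 reads of Pax5 in all, the part of B cell content in its ratio was not tested.

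**Figure D5:**
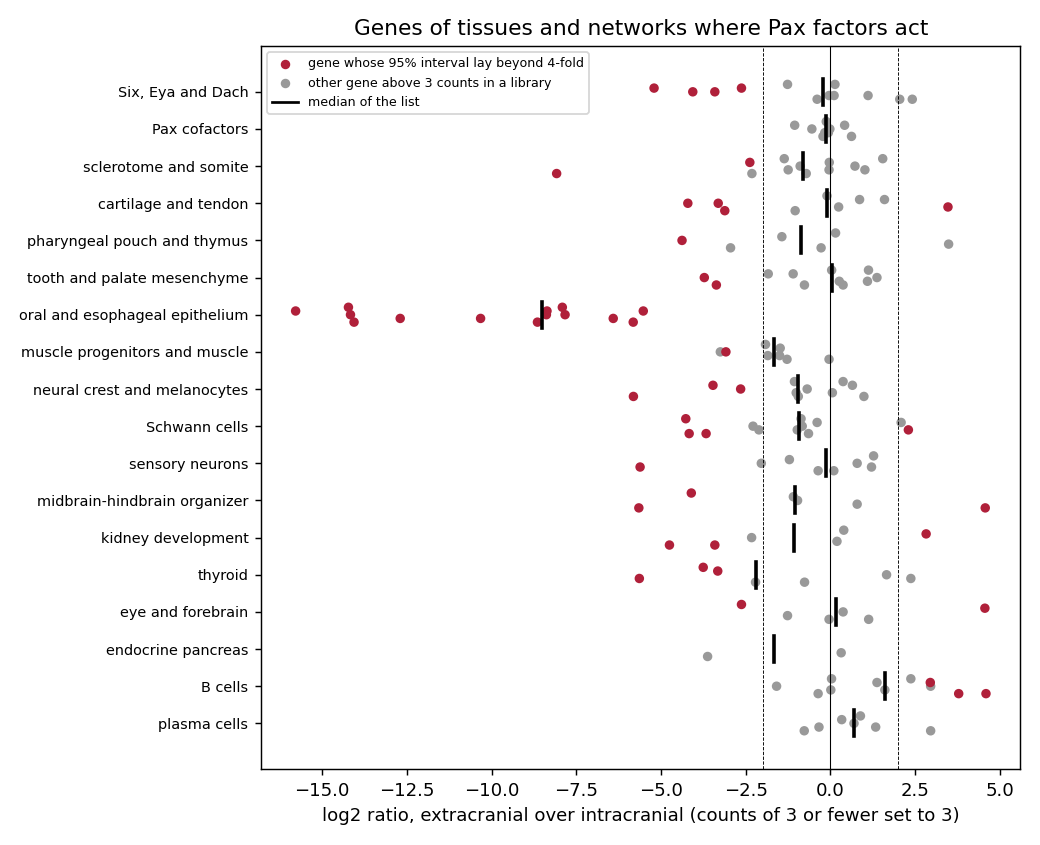
Log2 ratio extracranial over intracranial (counts of 3 or fewer set to 3) of each gene above 3 counts in a library, by list, with genes called beyond 4-fold in red, others in gray and list medians as black bars. Oral and esophageal epithelium lies far to the intracranial side (median -8.51), the B cell list lies to the extracranial side (median 1.61), and the sclerotome list has a median of -0.80.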

How the data were processed

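Raw read counts per Ensembl gene were deposited for 2 tumor libraries, with no normalization. Per the labels and the study's methods, the authors selected poly(A) RNA, made directional libraries, aligned single reads of 72 bases with STAR 2.7.9a to GRCm39 and counted with featureCounts. Strand and multi-mapping settings were not given in the sources used here. Samples were grouped by the localization label.

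Symbols, biotypes and summed exon lengths came from GENCODE release 21 (GRCm38), with a symbol for 52083 IDs (93.99%). Promoter windows were RefSeq's (7 of the 9 members had one). Library sizes were corrected by TMM factors from edgeR 4.0.16 in R 4.3.3. CPM had exact Clopper-Pearson 95% intervals, and ratios had conditional exact binomial 95% intervals. With 1 library per location, edgeR's quasi-likelihood test could not be fitted and no p-value is given. Genes needed 10 counts over both libraries, and medians hold counts of 3 or fewer at 3. The procedure was run on simulated counts that held counting error only, which checks the code and not variation between tumors. No molecular identifiers were used, so reads can be copies of 1 molecule.

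The members, tests and 18 lists of related genes were chosen with earlier results of these data known, and the macrophage and extracranial tumor cell lists were added after the files had been seen. Genes named were the members, Smarcb1 and, per list, the 2 most abundant, the 2 farthest from an equal ratio in each direction and those at 0 in both, plus the 3 genes nearest in level to members with 100 or more counts in a library. Other list genes named were chosen after their values were seen. Alternatives comprised other scalings (DESeq2 1.42.0 size factors, total counts, upper quartile), a prior count of 2, other count minimums, an interval beyond 2-fold, the ratio alone, levels without length and protein-coding genes only. Some list genes are not reported here by name.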

Additional observations from a re-analysis of the deposited data

How the results depend on the processing

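No paired analysis was possible because only 1 library came from either site, and for the same reason no library could be left out. The other scalings and the prior count of 2 gave log2 ratios of 6.77 to 7.01 for Pax1, 1.61 to 1.66 for Pax9, 2.10 to 2.23 for Pax5 and -1.08 to -1 for Pax6, with counts of 3 or fewer set to 3 except under the prior count. An interval beyond 2-fold gave 2 Pax genes (Pax1 and Pax9) and 3434 genes in all, and a point ratio beyond 4-fold, with no interval, gave 2 Pax genes (Pax1 and Pax5) and 2542 genes, since both admit more genes by construction. Under the other settings 1155 to 1586 genes were called. Without length, the level of Pax1 was 1.07 times that of Pax9 in the library labelled extracranial. Over 198 list medians and list counts under other scalings, the exceptions were the endocrine pancreas genes called higher in the intracranial-labelled library, which were 1 (Mafa) with total counts, and the macrophage median, which was 1.64 with upper quartile scaling. No list median changed sign. The largest shift of a list median was 0.04. Protein-coding genes only was chosen after seeing the data. Depth limits the 7 Pax genes with at most 10 counts.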
